A study of Mus musculus with 12 samples.

Results

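Interferon-stimulated genes are the genes whose transcripts rise when a cell senses interferon, and 39 of them were followed here in mouse adipocytes with altered levels of SRA. SRA, the steroid receptor RNA activator, is a non-coding RNA that acts as a coactivator of nuclear receptors. The 39 symbols were a given list, and a gene counted as measured where a probe set was annotated to that symbol alone, with the probe set of highest mean over all arrays taken for each gene. By this rule 37 of the 39 genes were measured, among 18194 genes with such a probe set on the array. Isg15 had only a probe set shared with another symbol, and Ifi44 had none annotated to it alone.

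The 4 groups held 3 arrays each, labelled as biological replicates. ST2 cells, a mouse bone marrow stromal line, carried either the empty retroviral vector pMSCV (ST2 control) or the same vector with a human SRA cDNA (ST2 SRA), and were taken as adipocytes at day 4. 3T3-L1 cells, a mouse preadipocyte line, carried a retroviral control (3T3-L1 shControl) or a short hairpin RNA against SRA (3T3-L1 shSRA), and were taken at day 8. The labels call the 3T3-L1 control an empty vector, whereas the methods describe a non-targeting hairpin. All 4 groups were differentiated with troglitazone (5 µM), insulin (0.167 µM), dexamethasone (1 µM) and the phosphodiesterase inhibitor 3-isobutyl-1-methylxanthine (0.5 mM), and all carried a retrovirus. The labels give the strain as BC8 for ST2 and Swiss albino for 3T3-L1. Pools of ST2 cells selected with puromycin were used, and the knockdown arrays rest on 1 hairpin, so an effect of that hairpin and of SRA loss cannot be told apart.

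Type I interferons bind the receptor pair Ifnar1 and Ifnar2, which activates the kinases Jak1 and Tyk2. Stat2, once phosphorylated, works with Irf9 in a complex that binds the interferon-stimulated response element (ISRE) in promoters. Many of the induced proteins block viral replication, and others, such as the sensors Ifih1 and Dhx58 and the factors Stat2, Irf7 and Irf9, belong to the pathway itself. Fat cells and their precursors express this program and respond to interferon.

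Promoter sequences show which members carry the ISRE in its short form. RefSeq promoters (build GRCm38.p6), running from 250 bases before to 50 bases after the start of transcription, were found for 28 of the 37 measured genes. They were searched on both strands for GAAANNGAAA, which reads TTTCNNTTTC on the other strand, and 8 of the 28 genes held it, against 3.99% of all 27025 genes in the same table. Among genes that were lower in ST2 SRA, 10 had at least 1 promoter in the table and 5 of these held the motif (Ifit1, Ifit3, Rsad2, Stat2 and Ifih1). Among the other genes it was 3 of 18 (Bst2, Eif2ak2 and Trim21). The palindromic STAT site TTCNNNGAA stood in 7 of the 28, against 9.55% of all genes. Its split ran the other way, with 1 of the 10 lower genes and 6 of the 18 others. The stretches upstream of the start are printed for the 4 lower genes with the ISRE core there and, for comparison, for Bst2, which did not pass the test. Each is written 5′ to 3′ on the gene's strand, with the motif in capitals.
Ifit1: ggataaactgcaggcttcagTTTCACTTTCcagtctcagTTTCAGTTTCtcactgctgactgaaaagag
Ifit3: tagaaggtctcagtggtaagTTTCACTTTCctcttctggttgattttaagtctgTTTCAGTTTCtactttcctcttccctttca
Rsad2: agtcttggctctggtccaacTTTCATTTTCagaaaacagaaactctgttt
Stat2: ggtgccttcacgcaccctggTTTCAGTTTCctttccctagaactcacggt
Bst2: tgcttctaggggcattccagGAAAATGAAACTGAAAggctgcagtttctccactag

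Ifit1 (chr19:34640765-34640833, plus strand) holds the motif at 104 and again at 85 bases before the start. Ifit3 (chr19:34583353-34583436, plus strand) holds it at 156 and 122 bases. In Rsad2 (chr12:26456543-26456592, minus strand) it begins 120 bases before the start, and in Stat2 (chr10:128270256-128270305, plus strand) 222 bases before it. In Bst2 (chr8:71537567-71537622, minus strand) the pair of matches, at 130 and 124 bases, overlap. A match is a description of letters and not evidence of binding.

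The targeted transcript was checked first. Sra1 measured 11.86, 11.67 and 11.84 on the log2 scale in shControl arrays and 9.46, 9.20 and 9.62 in shSRA arrays, a difference of -2.36 ± 0.18 (SE). Every SE here comes from the limma fit, with 1 variance per probe set pooled over all 4 groups. It is the same in both SRA comparisons and does not follow the SD of the groups compared. In ST2 cells the mouse probe set differed by 0.22, and it cannot be taken to read the human cDNA that was introduced. Of the 10 adipocyte markers listed 8 were measured, and their mean lay between 11.76 and 12.97 on every array. Fabp4 and Adipoq were among the bright ones, while Lep was dim in every group, with means from 4.48 to 4.64. Macrophage and other blood cell markers were dim, the mean over 12 of them lying between 5.99 and 6.26 in ST2 control arrays and between 6.09 and 6.29 in ST2 SRA arrays. Ptprc, which marks blood cells, measured 4.05 and 4.19 in these groups, while Cd68 measured 8.14 and 8.63 and Laptm5 7.55 and 7.94. Of the 12 markers 4 passed the variance filter, and by limma 0 of these passed the test in either SRA comparison, adjusted or not. Endothelial markers, 5 in all, gave array means between 5.20 and 5.44 in the 4 groups.

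The replicate arrays of ST2 control did not agree well for these genes, which touches every ST2 result. Replicate 1 lay above the mean of the other 2 control arrays in 37 of 37 members, with a median deviation of 0.77 on the log2 scale. Replicate 2 lay below in 35 of 37, with a median deviation of -0.71. Across all tested probe sets the same arrays deviated by 0.21 and -0.41. In 34 of the 37 members the order was replicate 1 over 3 over 2. Among ST2 SRA arrays, replicate 2 lay below the others in 32 of 37 members, with a median deviation of -0.28, while all tested probe sets deviated by -0.03. The 3T3-L1 arrays stayed within 0.07 above and 0.12 below the other arrays of their groups by median. The median SD over members was 0.53 in ST2 control, 0.18 in ST2 SRA, 0.17 in shControl and 0.16 in shSRA, beside 0.30, 0.13, 0.16 and 0.14 for all tested probe sets. In ST2 control the SD ran from 0.09 for Irf1 to 1.01 for Oasl2. Values without each of these arrays are given with the counts they change.

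**Figure D1:**
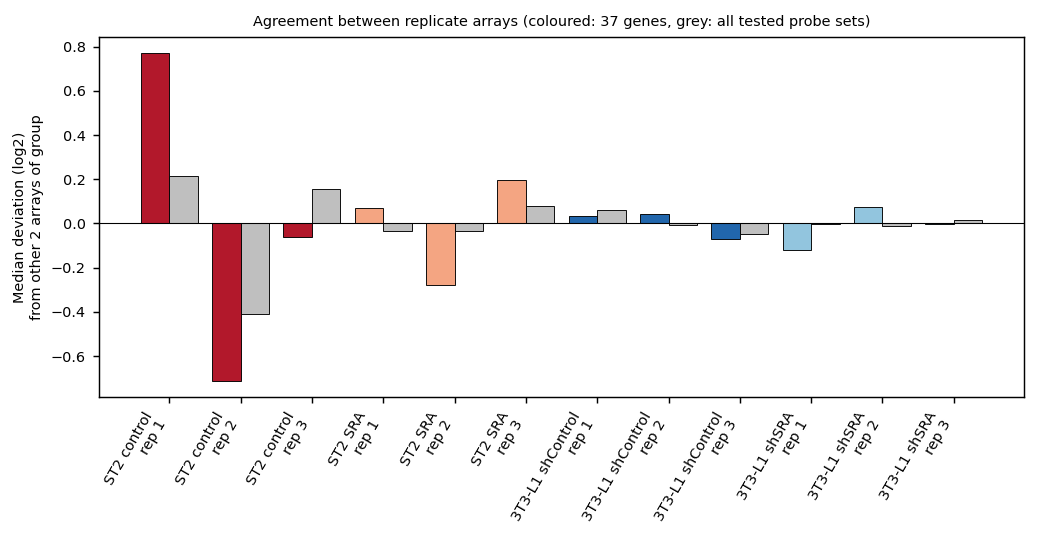
For each of the 12 arrays, the median deviation (log2) from its 2 sister arrays, for the 37 interferon-stimulated genes (coloured bars) and for all 19068 tested probe sets (grey bars). ST2 control replicates 1 and 2 stand apart at 0.77 and -0.71, and the 3T3-L1 arrays lie close to 0.

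SRA overexpression in ST2 adipocytes came with lower levels of many interferon-stimulated genes. Of the 37 measured members 15 were lower and 0 higher in ST2 SRA than in ST2 control (limma, Benjamini-Hochberg adjusted over 19068 tested probe sets, adjusted p under 0.05). Among all tested probe sets 5.65% were lower and 2.33% higher by the same test. A variance filter removed 5 members (Irf1, Cmpk2, Trim21, Daxx and Ube2l6) before the test, so that 32 could be called. Before adjustment, a p under 0.05 was found for 25 members, all of them lower. At that threshold 1917 of the 19068 tested probe sets were lower and 2314 higher. The difference was below 0 in 34 of 37 members, and its median was -0.58 on the log2 scale, beside 0.06 over all genes with 1 probe set each. In 20 of the 37 members every SRA array lay below every control array, a separation seen in 9.03% of tested probe sets. Adipocyte markers had 7 of 8 differences above 0 in the same comparison, and a median of 0.26. Over all genes with 1 probe set each, 11481 of 18194 differences were above 0. Of the 8 adipocyte markers 4 passed the variance filter. Cd36 was higher in ST2 SRA (0.86 ± 0.16, limma adjusted p = 0.00176), and Cidec (0.47) and Pparg (0.41) had unadjusted p-values under 0.05 only. Their part in the result was not tested. Because whole cultures were profiled, fewer cells expressing a gene and less RNA per cell cannot be told apart.

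The number of lower members depended on which arrays were used. Leaving out ST2 control replicate 1 gave 8, leaving out ST2 control replicate 2 gave 24, and leaving out ST2 SRA replicate 2 gave 6. The share of all tested probe sets called in these fits is not given. A general shift in calls and one particular to these genes therefore cannot be told apart. The median difference was -0.38 without control replicate 1 and -0.82 without control replicate 2. Ifit1, Ifit3, Rsad2, Rtp4, Sp100 and Usp18 were lower with any 1 of the 12 arrays left out.

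Antiviral effectors made up the largest group, with 6 of 12 measured members lower. Ifit1, which binds viral RNA lacking host cap methylation, measured 10.88, 9.0 and 9.67 in ST2 control and 8.24, 7.18 and 8.05 in ST2 SRA. All SRA arrays were below all control arrays, and the difference was -2.02 ± 0.35 (SE, n = 3 per group, limma adjusted p = 0.000637), a 4.06-fold lower level. Rsad2, or viperin, which makes a chain-terminating nucleotide, measured 9.02, 7.77 and 8.73 in control and 6.95, 6.75 and 7.01 in SRA arrays. The SRA arrays lay close together, 3.04-fold below control (-1.61 ± 0.23, limma adjusted p = 0.000101). Ifit3, a partner of Ifit1, measured 10.20, 8.80 and 8.82 in control and 8.11, 7.11 and 7.80 in SRA arrays. It was 3.03-fold lower (-1.60 ± 0.29, limma adjusted p = 0.00121), with the caution that a closely similar neighbouring gene could contribute to its signal.

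Oasl2, a 2′-5′-oligoadenylate synthetase-like protein, measured 10.25, 8.24 and 9.17 in control and 8.25, 7.18 and 8.12 in SRA arrays. The lowest control and highest SRA arrays overlapped, and the difference of -1.37 ± 0.35 passed with a limma adjusted p of 0.0171. Mx2, a dynamin-like GTPase that restricts viruses, measured 9.87, 8.30 and 8.76 against 7.91, 7.66 and 8.05, and its groups did not overlap (-1.10 ± 0.26, limma adjusted p = 0.00986). Ifit2, the last of the Ifit genes, measured 9.01, 7.30 and 7.90 against 7.17, 6.62 and 7.42. Its groups overlapped and its call was the closest to the threshold (-1.0 ± 0.29, limma adjusted p = 0.038). The other effectors did not pass the test. Mx1 measured 6.02, 4.62 and 4.90 in control arrays against values from 4.49 to 4.53 in SRA arrays, and control replicate 1 stood highest (-0.67, adjusted p = 0.106). Bst2 (tetherin) differed by -0.58, Oasl1 by -0.51, Samhd1 by -0.40 and Adar by -0.21, with adjusted p-values from 0.0887 to 0.448, and Cmpk2 differed by 0.13.

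Sensors of viral nucleic acid were lower in 3 of 4 cases. Dhx58 (LGP2), a helicase that regulates RNA sensing, measured 8.72, 7.31 and 8.10 in control and 7.15, 6.51 and 7.30 in SRA arrays (-1.06 ± 0.26, limma adjusted p = 0.0137). Ifih1 (MDA5), which senses long double-stranded RNA, measured 9.84, 8.81 and 9.07 against 8.50, 8.22 and 8.65 (-0.78 ± 0.21, limma adjusted p = 0.0241). In both genes all SRA arrays lay below all control arrays, though narrowly in Dhx58 (7.30 against 7.31). Zbp1, a sensor of left-handed nucleic acid, measured 7.93, 7.19 and 7.82 against 6.90, 6.92 and 6.98, without overlap (-0.71 ± 0.18, limma adjusted p = 0.0185). The kinase Eif2ak2 (PKR), which halts translation on binding double-stranded RNA, differed by -0.46 (adjusted p = 0.131).

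Among transcription factors, 2 of 4 were lower. Irf7, which drives interferon gene transcription, measured 10.40, 9.29 and 9.65 in control and 8.97, 8.60 and 9.06 in SRA arrays (-0.91 ± 0.25, limma adjusted p = 0.0247). Stat2, a subunit of the factor that binds the ISRE, measured 9.92, 8.84 and 9.48 against 8.62, 8.30 and 8.62, a 1.86-fold lower level (-0.90 ± 0.22, limma adjusted p = 0.0122). The groups of both genes were separate. Irf9, the DNA-binding subunit of the same factor, measured 9.33, 8.31 and 8.79 against 8.32, 8.19 and 8.30, with overlap (-0.54, adjusted p = 0.124). Irf1 varied too little for the test and differed by 0.01, its arrays lying between 10.54 and 10.77 in both groups.

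Of 8 enzymes that act through ubiquitin, ISG15 or ADP-ribose, only Usp18 passed. Usp18, the protease that removes ISG15 and also restrains the interferon receptor, measured 11.77, 10.37 and 10.61 in control and 9.59, 8.99 and 9.51 in SRA arrays. Its groups were separate and the level was 2.93-fold lower in SRA (-1.55 ± 0.31, limma adjusted p = 0.00242). The ISG15 ligase Herc6 was near the threshold (-0.53, adjusted p = 0.0512), and the others ranged from -0.58 for Parp14 to -0.13 for Ube2l6. In the nuclear bodies that form around Pml, Sp100 measured 8.85, 7.61 and 8.21 against 7.15, 6.38 and 7.16, also separate (-1.33 ± 0.25, limma adjusted p = 0.00156). Pml itself differed by -0.54 (adjusted p = 0.0551) and Daxx by 0.11.

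Of the 6 remaining members, Rtp4 and Xaf1 were lower. Rtp4, a receptor transporter protein, measured 12.15, 11.01 and 11.48 in control and 10.49, 9.85 and 10.46 in SRA arrays (-1.28 ± 0.24, limma adjusted p = 0.00184). Xaf1, a proapoptotic partner of XIAP, measured 12.26, 11.02 and 11.35 against 10.74, 9.90 and 10.73 (-1.09 ± 0.26, limma adjusted p = 0.0103). Neither gene's groups overlapped. Ifi27l2a, a small interferon-induced protein, measured 8.10, 6.93 and 7.07 against 6.33, 6.33 and 6.73. Its groups were separate although it missed the threshold (-0.90 ± 0.30, limma adjusted p = 0.075); a nested F classification, which calls a comparison given the others, placed it among the lower genes. That classification called 11 members lower and did not call Ifit2, Irf7, Oasl2, Ifih1 or Zbp1. Among all tested probe sets, the same classification called 802 lower and 206 higher in ST2 SRA. Lgals3bp, a secreted glycoprotein, hardly differed (-0.02), its values being 13.63, 13.01 and 13.54 in control and 13.36, 13.32 and 13.44 in SRA arrays. Ifi35 differed by -0.31 and Znfx1 by -0.03.

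**Figure D2:**
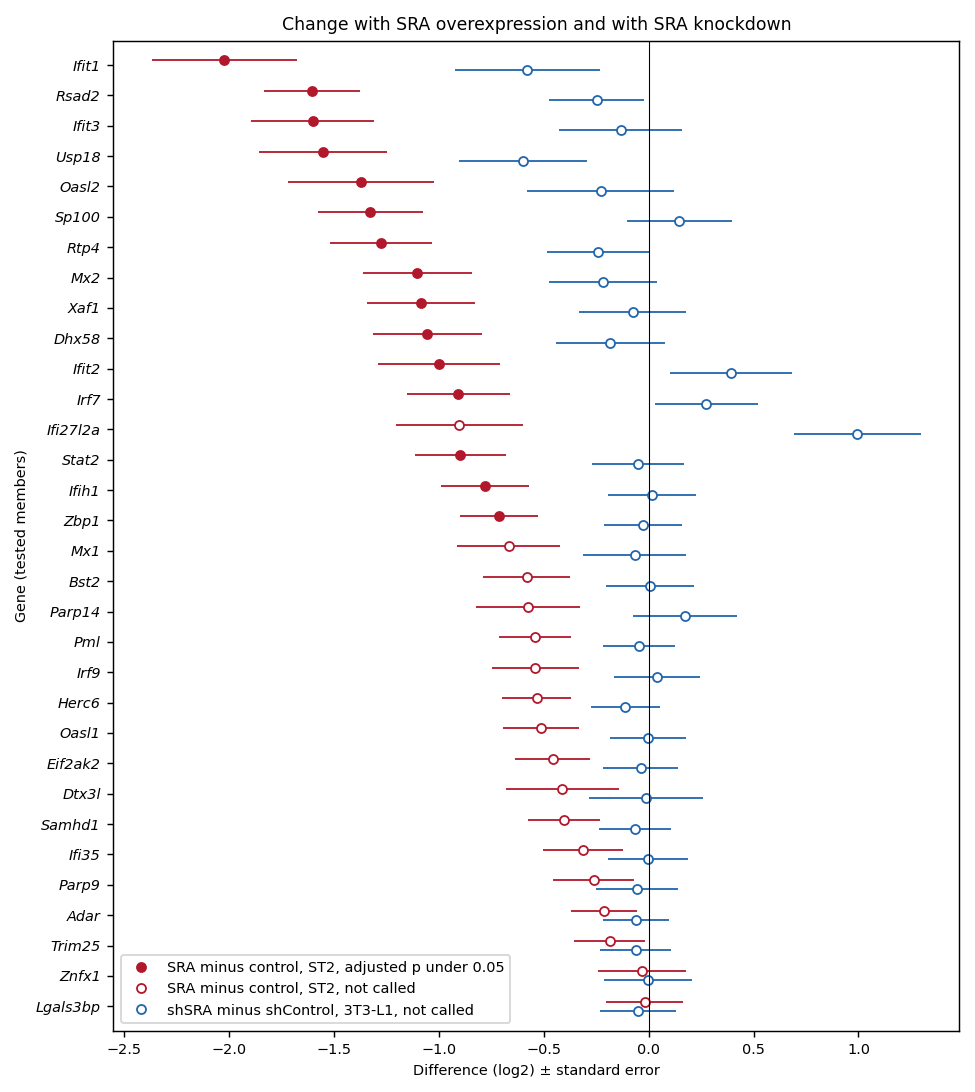
Difference between groups (log2) with its standard error for the 32 tested interferon-stimulated genes, for SRA minus control in ST2 (red) and shSRA minus shControl in 3T3-L1 (blue), with filled points at an adjusted p under 0.05. The 15 filled points all lie on the ST2 side below 0, from -2.02 (Ifit1) to -0.71 (Zbp1), and most blue points lie near 0.

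Several members had more than 1 probe set, and these did not always give the same call. Zbp1 differed by -1.64 on its second probe set (limma adjusted p = 5e-06). Samhd1, not called above, has 4 further probe sets, of which 2 passed (-0.96, adjusted p = 0.000489, and -0.87, adjusted p = 0.00475) and 2 did not (-0.15, adjusted p = 0.756, and -0.13, adjusted p = 0.788). Pml passed on 1 further probe set (-0.87, adjusted p = 0.0162) and not on the other (-0.38, adjusted p = 0.203). The second probe sets of Rtp4 and Xaf1, and the further ones of Dhx58, did not pass.

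SRA knockdown in 3T3-L1 adipocytes gave no called member by limma without the replicate block, and 1 higher member, Ifi27l2a, both with the block and by the nested F classification. Without the block 0 of 37 passed, where 0.0734% of all tested probe sets (14 of 19068) did, so that few calls of any kind were made in this comparison. At an unadjusted p under 0.05, 1 member was higher and 0 were lower, and the median difference was -0.05. Of the 19068 tested probe sets 263 were higher and 270 lower at that threshold. Non-overlapping groups were seen for 2 members below control (Mx2 and Rsad2) and 2 above (Ifit2 and Ifi27l2a), where 10.2% of tested probe sets had separate groups in either direction.

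Ifi27l2a was the exception by size. It measured 8.96, 9.42 and 9.74 in shControl and 9.93, 10.05 and 11.14 in shSRA arrays, and every knockdown array was above every control array. The difference was 0.99 ± 0.30 (limma adjusted p = 0.721). Replicate numbers paired the arrays in this line, and with the replicate block the limma adjusted p was 0.006. That fit held replicate terms for both lines and 1 variance per probe set. Its p-values for knockdown therefore also rest on terms for the ST2 arrays, which did not count as paired. In that fit 0.53% of tested probe sets passed, and Ifi27l2a was the 1 member among them. The nested F classification also placed it among the higher genes. Without shSRA replicate 3, the brightest array, the difference was 0.61.

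The next smallest p-values belonged to genes that did not pass under either fit. Usp18 measured 6.58, 7.69 and 7.22 in shControl and 6.27, 6.95 and 6.47 in shSRA (-0.60 ± 0.31, unadjusted p = 0.0651 by limma, n = 3 per group). Each shSRA array was below the shControl array of the same number, while the groups overlapped. Ifit1 measured 5.78, 6.22 and 5.33 against 4.97, 5.22 and 5.41 (-0.58 ± 0.35). Ifit2 measured 6.10, 6.24 and 5.79 against 6.45, 6.47 and 6.39, and lay above control on every knockdown array (0.39 ± 0.29). Sp100 gave 5.28, 5.37 and 5.60 against 5.60, 5.68 and 5.40, and Rsad2 6.41, 6.57 and 6.43 against 6.04, 6.28 and 6.35. Of the 15 genes that were lower in ST2 SRA, all but Rsad2, Mx2 and Ifit2 had overlapping groups in 3T3-L1. Mx2 measured 6.88, 6.95 and 6.96 in shControl and 6.58, 6.81 and 6.74 in shSRA. Ifit3 measured 6.70, 6.84 and 6.45 against 6.35, 6.75 and 6.49. Oasl2 in shSRA measured 4.61, 4.90 and 5.16, and Rtp4 7.60, 8.13 and 7.82. Xaf1 measured 9.08, 8.99 and 8.78 against 8.78, 8.80 and 9.04. Of these genes only Mx2 had separate groups. Dhx58 measured 6.26, 6.01 and 6.29 against 6.07, 5.90 and 6.05, and Ifih1 7.17, 7.04 and 7.20 against 6.97, 7.24 and 7.25. Zbp1 measured 6.54, 6.93 and 6.61 against 6.59, 6.78 and 6.63. The factors Irf7 and Stat2 were similar in this respect. Irf7 measured 8.06, 8.77 and 8.34 against 8.34, 8.95 and 8.70, and Stat2 7.38, 7.55 and 7.02 against 7.18, 7.38 and 7.22. Leaving aside Ifi27l2a, Usp18, Ifit1, Ifit2 and Rsad2, members differed by values between -0.24 (Rtp4) and 0.27 (Irf7).

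**Figure D3:**
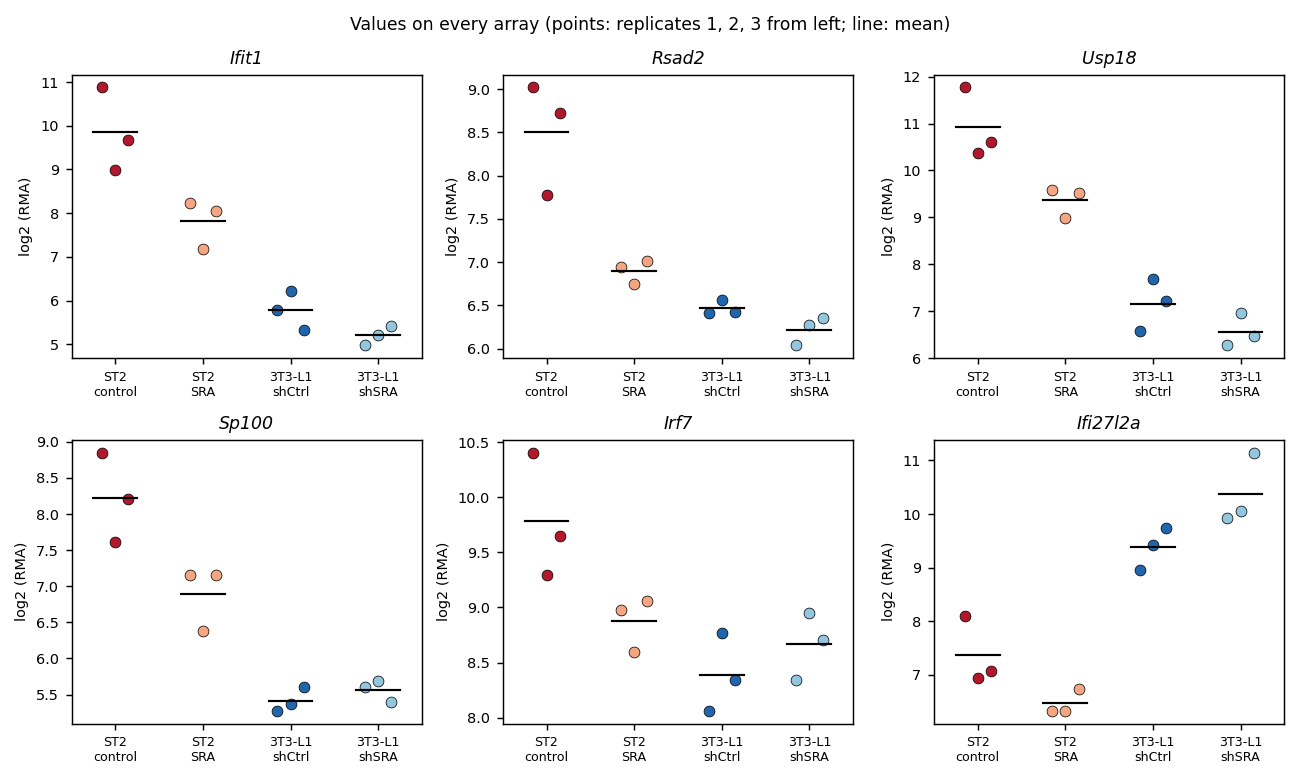
Log2 values on every array for 6 interferon-stimulated genes in the 4 groups, with replicates 1 to 3 from left to right as points and the group mean as a line. Ifit1, Rsad2, Usp18 and Sp100 fall from ST2 control to ST2 SRA and are lower still in 3T3-L1, whereas Ifi27l2a is brightest in 3T3-L1 shSRA (9.93 to 11.14).

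The change with SRA overexpression was set against the change with SRA knockdown in 1 test of the difference. It passed for 3 of 37 members, where 2.32% of tested probe sets passed. Ifi27l2a moved furthest apart, by -1.90 ± 0.43 (limma adjusted p = 0.0191); its differences were -0.90 with overexpression and 0.99 with knockdown. Sp100 differed by -1.47 ± 0.35 (limma adjusted p = 0.0287) and Rsad2 by -1.36 ± 0.32 (limma adjusted p = 0.0269). The remaining members did not pass on the probe sets taken, Ifit1 included (-1.44 ± 0.49, adjusted p = 0.179). On those probe sets their fall in ST2 is not shown to differ from their change in 3T3-L1. Zbp1 passed on its second probe set (-1.44, limma adjusted p = 0.00238). Samhd1 passed on 1 further probe set (-1.10, limma adjusted p = 0.00888) and not on its others. The further probe sets of Rsad2 passed, and that of Sp100 did not. On the probe sets taken, the count of members was 0 without ST2 control replicate 1 or ST2 SRA replicate 2, and without ST2 control replicate 2 it was 14. It was 1 when ST2 control replicate 3, shControl replicate 1, shSRA replicate 2 or shSRA replicate 3 was left out.

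The control cells of the lines differed widely for these genes. In ST2 control 27 of 37 members were higher than in 3T3-L1 shControl and 1 was lower, while 26.2% of all tested probe sets were higher and 37.4% lower. The median difference over members was 1.17. Line, day and vector differ together between these groups and cannot be told apart, and the controls are the same arrays used in the SRA comparisons. Without ST2 control replicate 1, 2 members were lower. Oasl2 differed most, with shControl values of 5.24, 5.34 and 4.77, all under the ST2 control arrays given above (4.10 ± 0.35, limma adjusted p = 6.04e-09, 17.2-fold). Ifit1 was 16.8-fold and Usp18 13.5-fold higher in ST2 control. Rtp4 was higher by 3.45 on the log2 scale, with 8.08, 8.35 and 7.84 in shControl.

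Ifi27l2a was the member that went the other way, with a difference of -2.01 ± 0.30 (limma adjusted p = 1.4e-05). Lgals3bp, which hardly differed in the SRA comparisons, was 4.05-fold higher in ST2 control, its shControl arrays being 11.25, 11.67 and 11.20. Members that differed little between the controls included Dtx3l (0.06) and Znfx1 (0.17). By role, 11 of 12 antiviral effectors, 4 of 4 sensors and 3 of 4 transcription factors were higher in ST2 control, as were 3 of the 8 enzymes. All ST2 control arrays lay above all shControl arrays in 26 members, below in 2, and the groups overlapped in 9.

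**Figure D4:**
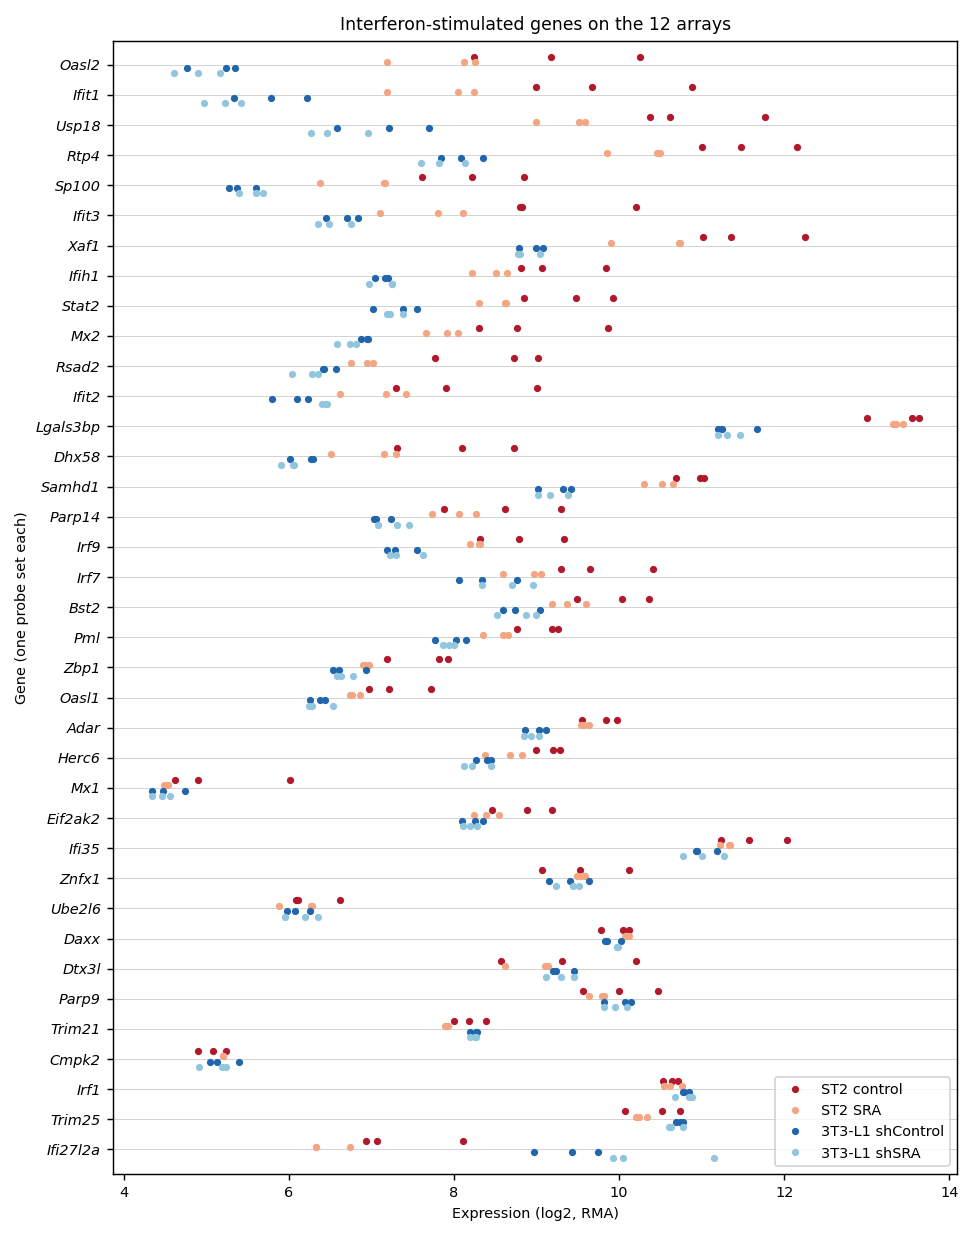
Log2 values of the 37 interferon-stimulated genes on all 12 arrays, 1 row per gene, ordered by the difference between ST2 control and 3T3-L1 shControl. Oasl2 (4.10) and Ifit1 (4.07) stand at the top with ST2 arrays far to the right, and Ifi27l2a (-2.01) stands at the bottom with the 3T3-L1 arrays to the right; brightness is not comparable between rows, since each row is another probe set.

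By mean over all 12 arrays, the brightest members were Lgals3bp (12.37), Ifi35 (11.24) and Irf1 (10.72), and the dimmest were Ube2l6 (6.17), Cmpk2 (5.15) and Mx1 (4.66). These values depend on the probes and do not rank the transcripts. Ifi35 measured 12.03, 11.23 and 11.57 in ST2 control, 11.33, 11.22 and 11.35 in ST2 SRA, 11.18, 10.93 and 10.94 in shControl and between 10.77 and 11.27 in shSRA. Irf1 measured 10.78, 10.85 and 10.77 in shControl and 10.68, 10.88 and 10.85 in shSRA, close to its ST2 values. Ube2l6, the enzyme that carries ISG15 to its ligases, measured 6.62, 6.09 and 6.11 in ST2 control, 6.26, 5.88 and 6.28 in ST2 SRA, 6.25, 5.98 and 6.08 in shControl and 6.35, 5.95 and 6.19 in shSRA. Its 4 groups overlapped. Cmpk2, a mitochondrial nucleotide kinase, stayed between 4.90 and 5.40 on all 12 arrays, and Mx1 between 4.34 and 4.74 on the 3T3-L1 arrays. Lgals3bp measured 11.20, 11.46 and 11.30 in shSRA. The mean over the 37 members was 9.69, 8.73 and 9.13 in the ST2 control arrays and 8.58, 8.28 and 8.62 in ST2 SRA. The 3T3-L1 arrays lay lower, with 7.84, 7.92 and 7.82 in shControl and 7.76, 7.87 and 7.86 in shSRA. On this scale the ST2 groups did not overlap, while the knockdown groups did.

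Genes of the interferon pathway outside the list were examined next, 41 of 49 listed being measured and 23 passing the filter. In ST2 4 were lower and 0 higher, and the median difference was 0.04. By the same test 5.65% of all tested probe sets were lower and 2.33% higher. At an unadjusted limma p under 0.05, 5 of the 41 were lower and 0 higher. At that threshold 1917 of the 19068 tested probe sets were lower and 2314 higher. Of the 8 measured inhibitors 2 were lower, both of them feedback inhibitors of cytokine receptors. Socs3 measured 9.44, 9.01 and 9.20 in control and 8.30, 7.89 and 8.01 in SRA arrays (-1.15 ± 0.18, limma adjusted p = 0.000218). Socs1 measured 7.33, 7.53 and 7.17 against 6.87, 6.75 and 6.74 (-0.56 ± 0.15, limma adjusted p = 0.0279). The other lower genes were Sting1, an adaptor for DNA sensing (-0.71 ± 0.15, limma adjusted p = 0.00412), and the RNA sensor Ddx58 (-0.61 ± 0.17, limma adjusted p = 0.0338). The count was 2 without ST2 SRA replicate 2 and likewise without ST2 SRA replicate 3.

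Ligands and receptors did not pass. The 5 measured ligand genes failed the variance filter, and Ifnb1 had group means of 6.09 in ST2 control, 6.01 in ST2 SRA, 5.98 in shControl and 5.95 in shSRA. Ifnar1 measured 8.83, 8.19 and 8.90 in ST2 control and 8.90, 8.90 and 9.04 in ST2 SRA (0.31, adjusted p = 0.309). Ifnar2 differed by 0.07 (adjusted p = 0.859), and Irf3, which induces Ifnb1, by 0.27 without being tested. With knockdown 0 of the 41 pathway genes passed limma, and at an unadjusted p under 0.05 the count was also 0. The test of the difference between the SRA changes passed for 1 of the 41, where 2.32% of tested probe sets passed. This was Socs3 (-1.14 ± 0.25, limma adjusted p = 0.0144).

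A longer list of other interferon-stimulated genes gave 16 lower and 0 higher in ST2 among 71 measured, 49 of which passed the filter. Its median difference was -0.16. By the same test 5.65% of all tested probe sets were lower in ST2 SRA and 2.33% higher. Trim30a measured 10.31, 9.57 and 9.83 in control and 8.90, 8.05 and 8.59 in SRA arrays, 2.62-fold lower (limma adjusted p = 0.000166). Oas2, a 2′-5′-oligoadenylate synthetase, measured 9.65, 9.62 and 9.29 against 8.56, 8.16 and 8.41, so that here control replicate 2 did not stand low (-1.14 ± 0.20, limma adjusted p = 0.000739). Ifi202b differed by -1.15, Slfn9 by -0.87, the membrane protein Ifitm3 by -1.01, Lgals9 (galectin-9) by -1.13, Phf11d by -1.19 and the GTPase Ifi47 by -0.95, with limma adjusted p-values from 0.00232 to 0.00611. None of the genes just named had overlapping groups in ST2. The count of lower genes was 9 when ST2 control replicate 1 was dropped, 26 when ST2 control replicate 2 was dropped and 8 when ST2 SRA replicate 2 was dropped. With knockdown 0 of the 71 passed limma, and the unadjusted test (p under 0.05) gave 1 higher and 1 lower gene. The test of the difference between the SRA changes passed for 2 of the 71, where 2.32% of tested probe sets passed. These were Ifitm3 (-1.44 ± 0.30, limma adjusted p = 0.00943) and Trim30a (-1.25 ± 0.29, limma adjusted p = 0.0247). Ifitm3 differed by 0.43 with knockdown (unadjusted p = 0.0551 by limma), with every shSRA array above every shControl array.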

How the data were processed

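Affymetrix GeneChip mouse genome arrays were used. The authors deposited log2 expression values from robust multi-array average (RMA) processing of all 12 arrays; the raw intensities were not used here. Of 45101 probe sets, 34958 had 1 gene symbol in the platform annotation, 932 several and 9211 none. No pair of arrays held identical values. The number of arrays limits the precision. Each p-value sets a difference against the spread between replicate cultures, pooled over the 4 groups and drawn towards that of all tested probe sets.

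The filter, the model and the threshold follow the study's methods. A filter kept the 19068 probe sets whose variance across the 12 arrays exceeded 0.05, group means were fitted with limma 3.58.1 in R 4.3.3, and p-values were Benjamini-Hochberg adjusted over all tested probe sets in each of 4 comparisons, with calls at an adjusted p under 0.05. Differences are on the log2 scale. The methods also describe a decision on each comparison that takes the other line into account; its exact form is not given in the sources used here, and limma's nested F classification stands for it as an alternative. With knockdown that classification called 46 probe sets higher and 44 lower, where the separate test called 14 in all. The fit was tested on simulated data with independent noise and the same SD for a probe set in all groups. That setting held no shift shared by the genes of an array, as seen in ST2 control, and does not cover it. The members and all lists were chosen with earlier results of these data known. Values on every array were given for members called in an SRA comparison by limma or by the nested F classification, for the 4 members of smallest p in each SRA comparison and, in full or as a range, for the 3 brightest and the 3 dimmest; from the other lists up to 8 called genes were named, with Ifnar1, Ifnar2, Irf3 and Ifnb1 in any case. Other probe sets, Sp100 and Rsad2 in knockdown, and the genes named as exceptions were chosen after their values were seen.

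Same-numbered arrays were compared by the correlation of their deviations from the group means over tested probe sets. It was 0.59, 0.59 and 0.38 in 3T3-L1, which therefore counted as paired from the data, and 0.04, 0.27 and 0.53 in ST2, which did not. Alternatives covered the filter, the choice of probe set, renormalization, the samples in the fit, array weights, the replicate block and leaving out each array.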

Additional observations from a re-analysis of the deposited data

Results flagged for a closer look

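A test of the difference itself was run on the probe set taken for each member. For 3 members the change with SRA overexpression in ST2 differed from the change with SRA knockdown in 3T3-L1. Ifi27l2a differed by -1.90 (limma adjusted p = 0.0191), with all 3 SRA arrays below control in ST2 and all 3 shSRA arrays above shControl in 3T3-L1. Sp100 differed by -1.47 (limma adjusted p = 0.0287) and Rsad2 by -1.36 (limma adjusted p = 0.0269), both being lower in ST2 with a difference near 0 or small in 3T3-L1. Leaving out single arrays moved the adjusted p of Ifi27l2a up to 0.0606, that of Sp100 up to 0.112 and that of Rsad2 up to 0.0928. With all 12 arrays kept, none of the 3 passed without the variance filter (adjusted p = 0.0907 for Ifi27l2a, 0.1 for Sp100 and 0.0798 for Rsad2). Ifi27l2a also missed the threshold after a second quantile normalization (0.0531), after centring on bright probe sets (0.0503) and with a trended, robust eBayes step (0.102). Sp100 missed it with a filter on the mean (0.053) and with the mean of its probe sets (0.128). Groups held 3 arrays each, too few for a test of outlying arrays.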

How the results depend on the processing

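No call of a member reversed its direction under any alternative. The 15 members lower with SRA overexpression became 30 with array weights, whose estimation stopped before convergence. They became 11 by the nested F classification and 24 with the replicate block. The ST2 arrays were not counted as paired, although for the members those numbered 1 and 2 deviated together. Leaving out 1 array gave 6 to 24. The median of -0.58 ranged from -0.82 to -0.38 in the same way. With knockdown 1 member was higher by the nested F classification and 1 with the replicate block. The 3 members whose changes differed became 0 without the variance filter, 5 with the probe set of highest variance, 19 with array weights and 15 with the replicate block, and 0 to 14 when 1 array was left out. Between the controls, array weights gave 2 lower members and leaving out arrays 1 to 2; the median of 1.17 was 1.39 with the probe set of highest variance and 1.00 to 1.41 without single arrays. The 4 lower pathway genes became 2 in a fit of the 6 arrays of the line, 8 with array weights, 2 by the nested F classification and 2 to 4 without single arrays. The 16 other interferon-stimulated genes became 10 without the filter, 33 with array weights, 10 by the nested F classification and 8 to 26 without single arrays, and array weights called 2 higher in ST2 and 1 higher with knockdown. The cause of these shifts was not tested. Shares of all tested probe sets were given only for the nested F classification and, with knockdown, for the replicate block. Ifit2, Irf7, Oasl2, Ifih1, Zbp1 and Dhx58 lost their call under at least 1 alternative that kept all 12 arrays, with adjusted p-values up to 0.112. The signal over background of dim members such as Mx1 and Cmpk2 was not tested.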
